A study of Bos taurus with 10 samples.

Results

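The genes described here code for the proteins of the cytoplasmic ribosome. They were taken from a table of 20112 bovine genes by symbol, as RPL or RPS followed by a number and at most 1 letter A, X or L, RPLP0 to RPLP2, and RPSA, with a mean normalized read count of at least 1 over 10 single embryos. The rule returned 78 genes, of which 46 belong to the large (60S) subunit and 32 to the small (40S) subunit, and all 78 entered the test. The study asked what the loss of *SOX2*, a pluripotency transcription factor, does to the bovine blastocyst. By its staining, the protein lay in both trophectoderm and inner cell mass of early blastocysts. It was restricted to the inner cell mass only in late blastocysts. Zygotes were injected either with mRNA of the cytosine base editor BE3 alone (WT, 5 embryos) or with the same mRNA and *SOX2* sgRNAs, which place premature stop codons in the gene (*SOX2* KO, 5 embryos). All 10 embryos therefore received the editor, and none was uninjected. They were early blastocysts, 7.0 days after fertilization by the labels. The methods of the study name a later point of the same day. Each embryo was sequenced whole and alone by Smart-seq2, which copies polyadenylated RNA from an oligo(dT) primer. The KO embryos were injected zygotes rather than a line, the study genotyped embryos from part of the cDNA, and no sex or breed is given. The embryos are named nc1 to nc5 (WT) and ko1 to ko5 (*SOX2* KO), as in the table.

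A ribosome joins a small subunit, which reads the mRNA, to a large subunit, which links the amino acids, and each subunit is built from ribosomal RNA and many proteins, most of them present in a single copy. Because the proteins are needed in fixed proportion, their mRNAs are made together, and nearly all of them start with a terminal oligopyrimidine (TOP) tract through which mTOR signalling sets their translation. Growing embryos and other dividing cells devote a large share of their mRNA to these genes, and after genome activation the embryo makes ribosomes from its own genome as well as from maternal stores. The values below are mRNA levels and say nothing of translation or of assembled ribosomes. In whole embryos, fewer cells of a type and less RNA per cell cannot be told apart.

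The libraries held between 2223670 and 5134855 reads on genes. Normalized read counts of the targeted gene, *SOX2*, were 56.5, 93.4, 83.5, 73.0 and 84.4 in nc1 to nc5 and 39.0, 26.4, 64.0, 82.1 and 71.5 in ko1 to ko5. The groups overlapped (log2 fold change -0.55, SE 0.27, limma adjusted p = 0.17), and a stop codon need not remove the mRNA. Trophectoderm markers (CDX2, GATA2, GATA3, KRT8, KRT18 and TFAP2C) had sums between 23999 and 35456 in WT and between 32515 and 45904 in KO embryos, and 5 epiblast markers between 1918 and 2396, then between 826 and 1150. KRT8 and KRT18 make up most of the trophectoderm sum. KRT18 rose by a log2 fold change of 0.73 (SE 0.23, limma adjusted p = 0.039), TFAP2C fell by 0.49 on the log2 scale (SE 0.15, limma adjusted p = 0.035), and the other 4 did not pass. Of 5 primitive endoderm markers 4 were in the table, with sums of 1136 to 1483 and 894 to 1024. In both lists 1 gene, with a mean of 968 (epiblast) or 914 (primitive endoderm), makes up a large part of the sum. By the limma thresholds given below, 3 of the 5 epiblast and 2 of the 4 primitive endoderm markers were called lower, beside 1.16% of all genes tested. The lowest log2 fold changes were -3.70 and -2.85. The 7 cumulus and granulosa markers in the table summed to at most 71.3, the 6 oocyte markers to at most 108 and the 3 sperm markers in the table to at most 36.6 in any embryo. The epiblast list includes *SOX2* itself, and POU5F1 (OCT4) and NANOG, which the study reported as lowered by its loss. These sums therefore do not measure the number of cells of a type. The part of the marker differences in the values below was not tested. Embryos nc2 and ko4 stood apart by a low count of XIST and of X-linked genes, and ko4 also by high counts of genes on 3 autosomes. Some results are also given without both, among them the median and the correlations of the members. The spreads, read shares, subunit ratios and most single genes are not given without both.

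None of the 78 ribosomal protein genes was called higher or lower in *SOX2* KO than in WT embryos (limma, Benjamini-Hochberg adjusted p at most 0.05 over all genes tested, and a fold of 2 or more, or of 0.5 or less). Over the 20056 genes tested, 8.93% were called higher and 1.16% lower. Over the 4548 well expressed genes (mean normalized read count 100 or above), a background nearer to that of the members, the shares were 2.29% and 1.34%. The median of their means was still only 208, beside 2292 for the members. The members also vary together, as described below, so a count of 0 among them is not 78 separate results. At the adjusted p alone the count of members was also 0, against 10.4% of all genes higher and 3.2% lower and 6.62% and 8.16% of well expressed genes, and in no member did the 5 WT and 5 KO values fail to overlap, as they did in 9.17% of all genes and 10.6% of well expressed genes. No member reached an unadjusted p of 0.05 in limma. On the reads recovered from the table, DESeq2 and edgeR also passed 0 members, with 0 and 2 at an unadjusted p under 0.05. The 2 were RPL14 and RPS26.

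The intervals around these differences were about as wide as those of well expressed genes, whose median SE was 0.18. With the barely detected RPL3L set aside, the log2 fold changes of the other 77 genes ran from -0.37 to 0.18, with a median of -0.03 and a median SE of 0.19. The 95% interval of each of the 77 stayed within a 2-fold change in either direction, and that of 68 within a 1.5-fold change. The lowest bound was 0.572-fold (RPS26) and the highest 1.50-fold (RPL21). In the whole list of 78, 29 estimates were above 0 and 49 below. The median over all genes tested was 0.25, and that over the 4548 well expressed genes was -0.11. Which side of 0 the median of the members fell on depended on the scaling, from -0.15 with every library set to the same total to 0.16 with the RN18S1 share of each embryo as a covariate, so no direction is given for the group.

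**Figure D1:**
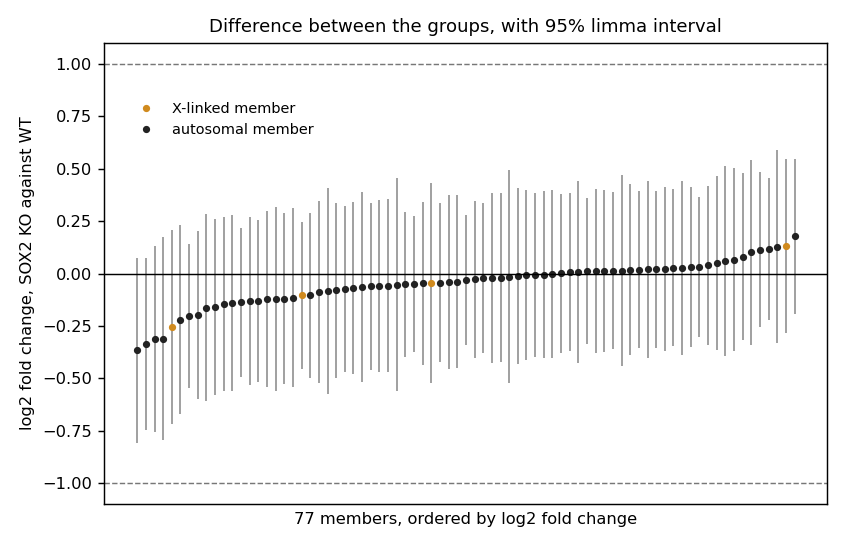
Log2 fold change of *SOX2* KO against WT embryos (y axis) for the 77 members other than RPL3L, ordered by that value along the x axis. Points are limma estimates from 5 embryos per group, vertical lines are 95% intervals, X-linked members are orange, and dashed lines mark a 2-fold change. Every interval lies between the dashed lines, and every one crosses 0.

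The large-subunit genes had a median log2 fold change of -0.02 and the small-subunit genes of -0.04. The ratio of the summed normalized read counts of the 2 subunits was 1.25, 1.24, 1.23, 1.16 and 1.22 in nc1 to nc5 and 1.23, 1.19, 1.22, 1.28 and 1.2 in ko1 to ko5. The embryo with the highest ratio exceeded the one with the lowest by 1.10-fold, and the groups overlapped, with nc4 below every KO embryo and ko4 above every WT embryo. These ratios compare embryos with each other and are not a ratio of subunits, since read counts were not divided by transcript length.

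The stalk of the large subunit recruits elongation factors, and RPLP0 anchors the acidic proteins RPLP1 and RPLP2 to it. RPLP0 had normalized read counts of 4908, 7028, 3484, 6599 and 5019 in nc1 to nc5 and of 3289, 4713, 4137, 5392 and 3894 in ko1 to ko5. The 2 highest embryos, nc2 and nc4, were both WT and the lowest was ko1, but the groups overlapped, and its log2 fold change of -0.31 (SE 0.21) did not pass (limma adjusted p = 0.32). The values of RPLP1 (-0.06, SE 0.20) and RPLP2 (0.02, SE 0.18) lay close to 0.

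RPS26, which lines the mRNA exit channel of the small subunit, had the lowest estimate of all members. Its normalized read counts were 2977, 5214, 2614, 4213 and 3319 in nc1 to nc5 and 1812, 2822, 3142, 3352 and 2967 in ko1 to ko5. The WT embryo nc3 lay below 4 of the 5 KO embryos, and the log2 fold change was -0.37 (SE 0.21, limma adjusted p = 0.24). RPL14, a large-subunit protein, was next, with 3716 ± 931 in WT and 2905 ± 494 in KO embryos (SD, n = 5 each) and a log2 fold change of -0.34 (SE 0.20, limma adjusted p = 0.24). RPL12, at the base of the stalk, had -0.31 (SE 0.23), and this value changed sign to 0.06 with the RN18S1 share as a covariate. At the other end, RPL37 had 1257 ± 332 in WT and 1390 ± 171 in KO embryos (SD, n = 5 each), a log2 fold change of 0.18 (SE 0.18, limma adjusted p = 0.51).

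The members with roles of their own showed the same overlap. RPL5 and RPL11, which with 5S rRNA form the particle that binds MDM2 and stabilizes p53, had log2 fold changes of -0.20 (SE 0.19) and -0.02 (SE 0.17). RPS6, the target of S6 kinase, had 2457, 4167, 1835, 3461 and 2659 in nc1 to nc5 and 1989, 2590, 2580, 3476 and 2468 in ko1 to ko5, which again put nc2 highest and nc3 lowest. Its log2 fold change was -0.12 (SE 0.21). RPSA, which doubles as the laminin receptor precursor, had -0.09 (SE 0.21), and RPL3, which lies near the peptidyl transferase centre, had -0.12 (SE 0.20). RPS27A, made as a fusion with ubiquitin, had 0.05 (SE 0.20), RPS27 had -0.02 (SE 0.19), and RPL22, which also binds RNA outside the ribosome, had 0.03 (SE 0.16).

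Of the paralogs made in few tissues or on induction, 2 were in the table. RPL3L, a form of RPL3 found in skeletal and heart muscle, had normalized read counts of 0, 2.97, 2.98, 0 and 0 in nc1 to nc5 and of 6.68, 1.32, 3.49, 0 and 9.22 in ko1 to ko5. These rest on 5 reads in WT and 18 in KO embryos, and the log2 fold change of 1.14 (SE 0.68) did not pass (limma adjusted p = 0.25). RPS27L, a p53 target and close copy of RPS27, had 441 ± 88.2 in WT and 381 ± 61.6 in KO embryos (SD, n = 5 each), with a log2 fold change of -0.20 (SE 0.17). RPL10L and RPL39L, expressed in male germ cells, were not analysed here. Of the other members, RPS9 and RPL22 took the fewest reads and RPS3, RPL10 and RPS4X the most, with means of 420, 800, 8082, 7836 and 6663 normalized reads per gene. Longer transcripts take more reads, so this is no order of mRNA levels.

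The members varied among the embryos of each group, and they did so together. The highest embryo exceeded the lowest by between 1.41-fold (RPS21) and 3.40-fold (RPS9) over the 77 genes. Of the 77, 53 had their highest value in nc2, 13 in ko4 and 10 in nc4, while 54 had their lowest in nc3 and 17 in ko1. The geometric mean of the 73 autosomal members was 1938, 2999, 1592, 2590 and 2102 in nc1 to nc5 and 1685, 2025, 2184, 2720 and 2112 in ko1 to ko5. Both the highest and the lowest embryo were thus WT. The median SD of the autosomal members on the log2 scale was 0.375 in WT and 0.252 in KO embryos, beside 0.271 and 0.265 for well expressed genes.

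**Figure D2:**
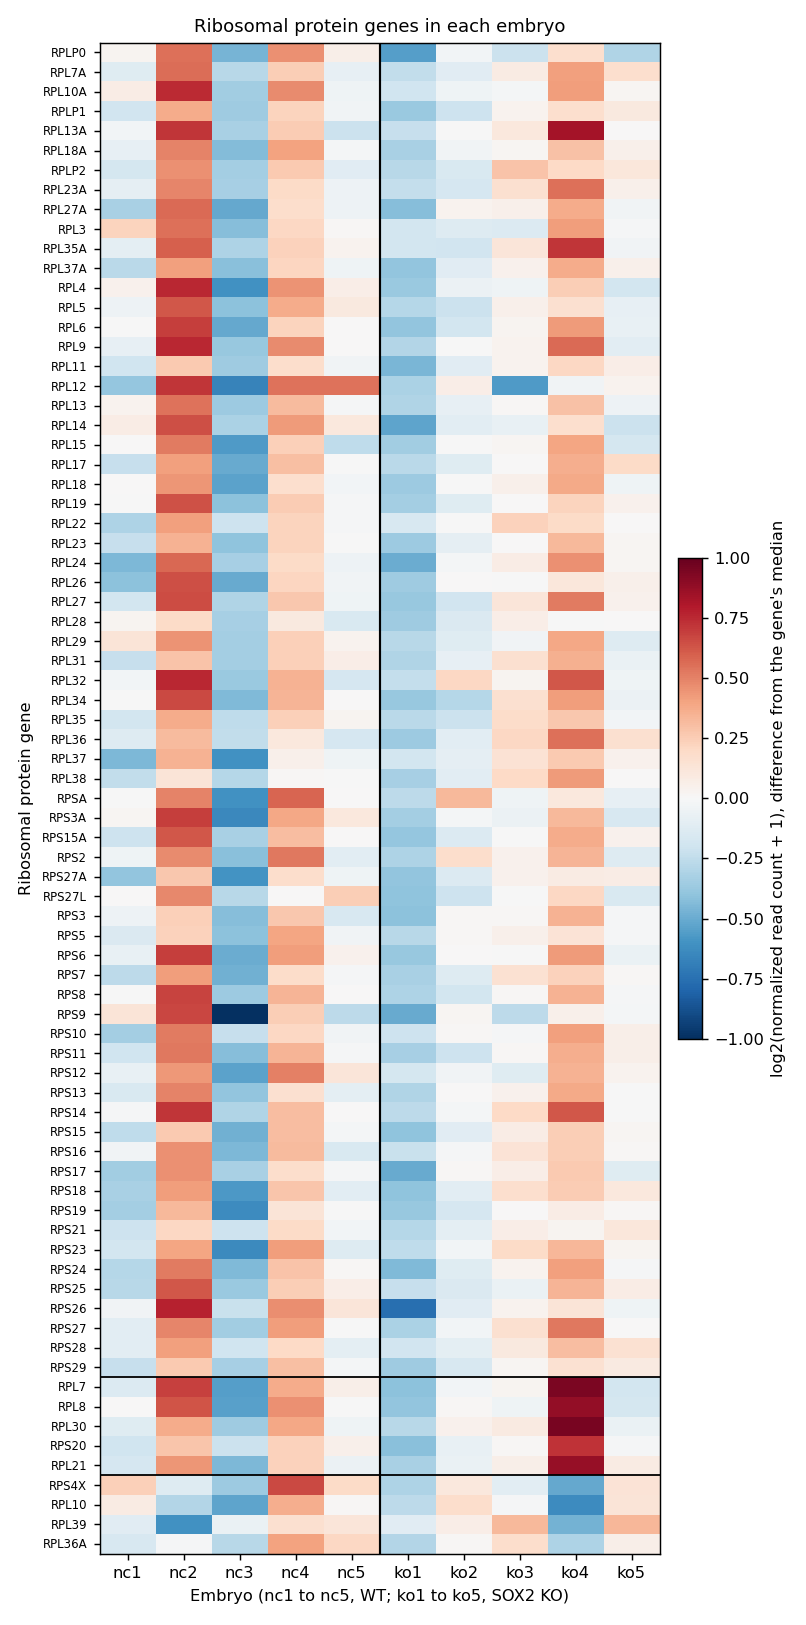
Each cell is the log2(normalized read count + 1) of 1 of 77 members (y axis) in 1 embryo (x axis, WT left and *SOX2* KO right of the line), as the difference from the median of the gene, red above and blue below. Horizontal lines set off RPL7, RPL8, RPL30, RPS20 and RPL21, then the X-linked RPS4X, RPL10, RPL39 and RPL36A. Columns nc2, nc4 and ko4 are red and nc3 and ko1 blue over most of the autosomal members, while the X-linked rows depart in nc2 and ko4.

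Deviations from the group means were compared between genes over the 10 embryos, as a description, since all genes of an embryo share its library and scaling. The median Pearson correlation over the 2628 pairs of autosomal members was 0.90 and 100% of pairs were above 0. Over pairs of well expressed genes the median was 0.0652 and 55.4% were above 0. Against the mean of the other autosomal members, 61 of 73 genes had a correlation above 0.9. The lowest were RPL12 (0.712), RPSA (0.814) and RPS9 (0.835). Without nc2 and ko4 the median over pairs of autosomal members was 0.879, that over well expressed genes 0.0591, and 54 of 73 genes had a correlation above 0.9 with the mean of the others. With values rescaled so that the autosomal members had an equal geometric mean in every embryo, a choice made after seeing the data, the median SE fell from 0.195 to 0.140. Under that scaling 73 of 78 intervals lay within a 1.5-fold change and 0 members passed, with log2 fold changes of -0.32 for RPS26 and -0.29 for RPL14. The scaling itself removes the mean group difference and the shared spread of these same members. The smaller SE therefore follows from it, and it cannot show whether the members differ as a group.

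The second reference for these genes is RN18S1, the 18S ribosomal RNA of the small subunit, which is not polyadenylated as a rule but took a large part of the reads. Its share of all reads on genes was 33.0, 28.1, 37.0, 31.9 and 26.4% in nc1 to nc5 and 36.8, 34.6, 39.6, 32.5 and 45.0% in ko1 to ko5. The groups overlapped, and the KO mean of 37.7% exceeded the WT mean of 31.3% by 6.40 percentage points (exact permutation test, two-sided, p = 0.063, the smallest possible being 0.0079). The members together took 5.51, 7.98, 4.52, 6.90 and 6.39% of reads in nc1 to nc5 and 4.74, 5.56, 5.48, 6.72 and 4.85% in ko1 to ko5. The group means were 6.26% ± 1.32 and 5.47% ± 0.786 (SD, n = 5 each), and the lowest embryo was WT.

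Embryos with a higher RN18S1 share had a lower share of reads on the members (Pearson r = -0.74, Spearman rho = -0.82, n = 10, no test), and without nc5 and ko5, the embryos farthest from the median, r was -0.85. Both shares have the same denominator, so that 1 falls as the other rises. With RN18S1 taken out of the denominator the members had 8.21, 11.1, 7.18, 10.1 and 8.69% in nc1 to nc5 and 7.50, 8.49, 9.07, 9.94 and 8.81% in ko1 to ko5. The group means moved to 9.06% ± 1.55 and 8.76% ± 0.890 (SD, n = 5 each). The correlation was then r = -0.41 and rho = -0.42, and r = -0.72 without the same 2 embryos. With 5 embryos a group, the relation was not computed within groups. The embryo with the highest RN18S1 share, ko5, lay near the middle of the member shares on this denominator.

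**Figure D3:**
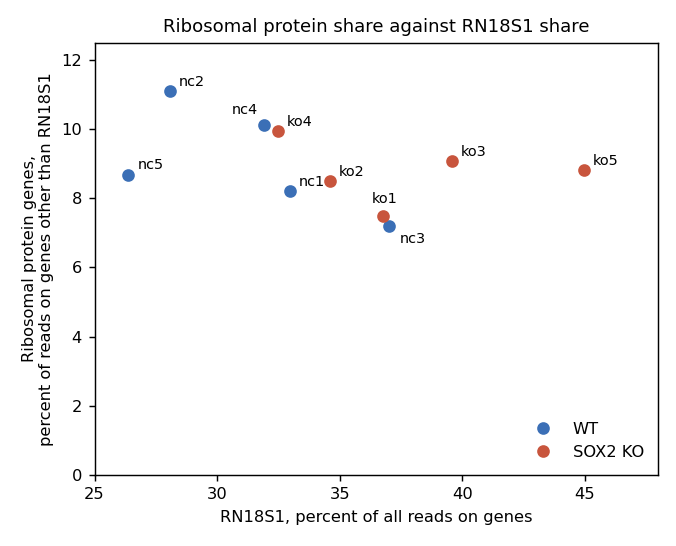
Share of reads on the 78 ribosomal protein genes among reads on genes other than RN18S1 (y axis, percent) against the RN18S1 share of all reads on genes (x axis, percent), 1 point per embryo, WT blue and *SOX2* KO red. Member shares range from 7.18% in nc3 to 11.1% in nc2 in WT embryos and from 7.50% in ko1 to 9.94% in ko4 in KO embryos, so the KO points lie within the WT range.

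With the RN18S1 share as a covariate in limma, 69 of the 78 estimates lay above 0 and 9 below, 0 passed, and the median SE rose to 0.231. Over all genes tested, the number passing the adjusted p fell from 2081 to 149 for higher and from 641 to 104 for lower in that fit. The RN18S1 share and the group cannot be told apart where they move together.

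The 4 X-linked members departed from the rest. RPS4X, a small-subunit protein with a Y-linked copy in some mammals, had normalized read counts of 7693, 5977, 5077, 10321 and 7439 in nc1 to nc5 and 5268, 7040, 6061, 4581 and 7174 in ko1 to ko5. RPL10, which completes the large subunit at the end of its assembly, had 8688, 6685, 5690, 10533 and 8258, then 6845, 9259, 8134, 5296 and 8975. In nc2, where 53 members peaked, both were below the WT median, and in ko4 both were the lowest of all 10 embryos. RPL39, a short protein lining the exit tunnel, had 3270, 2325, 3375, 3964 and 3855, then 3274, 3713, 4441, 2554 and 4465, with nc2 and ko4 the 2 lowest embryos. RPL36A, of the tRNA exit site, had 1387, 1539, 1281, 2055 and 1792, then 1264, 1563, 1756, 1250 and 1620. None passed between the groups, with log2 fold changes of -0.26 (SE 0.22), -0.05 (SE 0.23), 0.13 (SE 0.20) and -0.10 (SE 0.17) in the same order. Without nc2 and ko4 they were -0.22, 0.03, 0.13 and -0.05.

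The X-linked members were then set against the autosomal members of the same embryo. The geometric mean of the X-linked members divided by that of the autosomal members was 2.15, 1.15, 2.1, 2.11 and 2.16 in nc1 to nc5 and 2.08, 2.18, 2.03, 1.09 and 2.20 in ko1 to ko5. The other 8 embryos thus lay between 2.03 and 2.20 and did not overlap with nc2 and ko4, at 1.15 and 1.09. Relative to the autosomal mean and to its own median over embryos, RPS4X was at 0.605-fold in nc2 and 0.512-fold in ko4, RPL10 at 0.558-fold and 0.487-fold, RPL39 at 0.423-fold and 0.512-fold, and RPL36A at 0.667-fold and 0.597-fold. On this relative scale each of the 4 was low in both embryos. The autosomal geometric means of nc2 (2999) and ko4 (2720) were also the highest. The X-linked geometric mean itself was 3459 in nc2, above that of nc3 (3344). The correlations of RPL39 (-0.40), RPL10 (0.03), RPS4X (0.15) and RPL36A (0.37) with the autosomal mean lay below that of every autosomal member. Without nc2 and ko4 they were 0.76 (RPL39), 0.91 (RPL10), 0.91 (RPS4X) and 0.96 (RPL36A), within the range of the autosomal members over the same 8 embryos (0.674 to 0.992).

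XIST, the RNA that coats the inactive X chromosome of females, had normalized read counts of 1819, 11.9, 2326, 429 and 2144 in nc1 to nc5 and 2819, 2251, 1804, 33.7 and 1267 in ko1 to ko5. The 2 embryos with the low ratio were those with the least XIST, and nc4, next lowest at 429, had a ratio of 2.11. The 164 well expressed X-linked genes, the 4 members included, had a median log2 difference from their own medians of -0.47 in nc2 and -0.72 in ko4, beside -0.08 to 0.24 in the other 8 embryos. There was 1 such embryo in each group, and the sex of the embryos is not in the labels. With log2 XIST as a covariate the median SE of the members fell to 0.139 and 0 passed. The embryos with the least XIST, nc2, ko4 and nc4, also had the highest autosomal geometric means (2999, 2720 and 2590). The covariate can therefore take up spread that the autosomal members share, and the reason for the smaller SE was not tested.

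**Figure D4:**
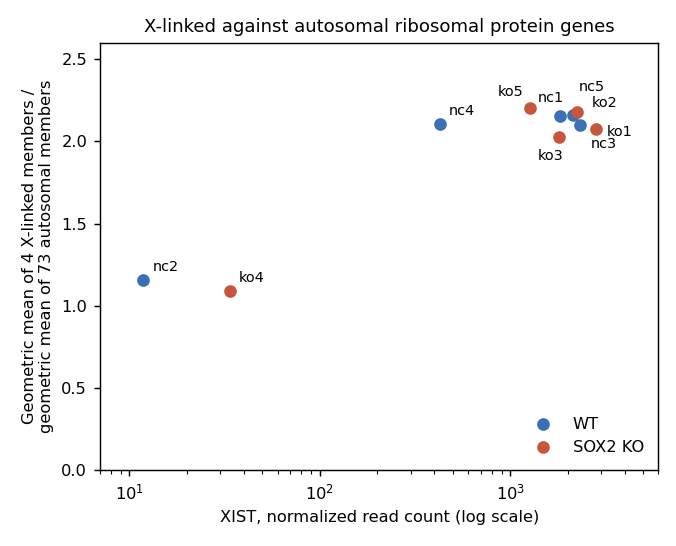
Geometric mean of the 4 X-linked members divided by that of the 73 autosomal members (y axis) against the normalized read count of XIST (x axis, log scale), 1 point per embryo, WT blue and *SOX2* KO red. Embryos nc2 and ko4 sit at 1.15 and 1.09 with XIST at 11.9 and 33.7, and the other 8 at 2.03 to 2.20.

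A further group of members departed in ko4 alone. RPL7 had normalized read counts of 2219, 3929, 1669, 3156 and 2550 in nc1 to nc5 and 1837, 2397, 2493, 4704 and 2153 in ko1 to ko5. RPL30 had 3775 in ko4 against 1529 to 2559 in the other 9 embryos, RPL8 had 6612 against 2468 to 5561, RPL21 had 6225 against 2490 to 4612, and RPS20 had 3857 against 1751 to 2839. Relative to the autosomal members of ko4, these were at 1.49-fold (RPL7), 1.45-fold (RPL30), 1.44-fold (RPL21), 1.39-fold (RPL8) and 1.30-fold (RPS20) of their median embryo. RPL7, RPL8, RPL30 and RPS20 lie on the same autosome in the RefSeq annotation of ARS-UCD2.0, and RPL21 on another. RPL13A stood at 1.32-fold in ko4 although the genes of its chromosome did not move.

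The shift in ko4 extended over the well expressed genes of these 2 autosomes, the members counted among them. The 109 well expressed genes on the chromosome of RPL7 had a median log2 difference of 0.61 in ko4, and 94.5% of them were above their own median embryo. The 81 such genes on the chromosome of RPL21 had 0.57 (92.6% above), and the 132 on an autosome with no member had 0.60 (90.9% above). The other 26 autosomes ranged from -0.02 to 0.13 in ko4, and all 29 autosomes from -0.25 to 0.22 in the other 9 embryos. These comparisons were made after the values were seen, and the number of chromosome copies was not measured. Leaving ko4 out moved the median of the members to -0.11 and leaving nc2 out moved it to 0.08, and neither gave a call. Without both, a choice made after seeing the data, the median was -0.01, 0 members passed, and the lowest adjusted p was 0.052 (RPL3L, log2 fold change 1.92).

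**Figure D5:**
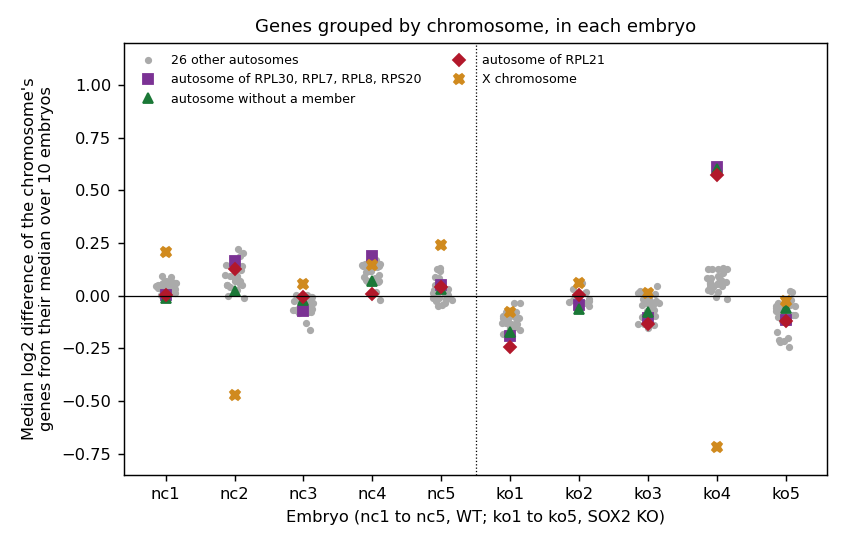
Median log2 difference of the well expressed genes of each chromosome from their own median over the 10 embryos (y axis), by embryo (x axis, WT left and *SOX2* KO right of the dotted line). In ko4 the autosome of RPL7, RPL8, RPL30 and RPS20, that of RPL21 and 1 without a member lie at 0.57 to 0.61, and the X chromosome at -0.72. The X chromosome lies at -0.47 in nc2.

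Of 10 ribosomal protein genes that the symbol rule does not match, 8 were in the table, and 0 of 8 passed. FAU, which encodes a small-subunit protein behind a ubiquitin-like domain, had a log2 fold change of -0.07 (SE 0.17), and RACK1, a signalling scaffold on the small subunit, had -0.18 (SE 0.21). The widest difference was in RPL22L1, a paralog of RPL22, with 588, 1480, 537, 858 and 557 in nc1 to nc5 and 346, 593, 454, 715 and 296 in ko1 to ko5. The 2 lowest embryos were ko5 and ko1, but ko4 and ko2 lay above 3 WT embryos, and the log2 fold change was -0.70 (SE 0.26, limma adjusted p = 0.074). Without nc2 and ko4 it was -0.61 with an adjusted p of 0.044, while 2 of the 10 fits that leave out 1 embryo passed it and the fit with the RN18S1 share as a covariate did not (adjusted p = 0.80). RPL22 itself had 797 ± 167 in WT and 804 ± 88.9 in KO embryos (SD, n = 5 each).

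Some of the genes that act with the ribosome passed the test. Of 17 genes of translation elongation and other TOP mRNAs, 1 passed upward and 1 downward (median log2 fold change -0.17), 5.88% each way beside 10.4% of all genes higher and 3.2% lower. Among well expressed genes 6.62% passed higher and 8.16% lower, with a median of -0.11. HNRNPA1, an RNA-binding protein with a TOP mRNA, fell from 2472 ± 553 to 1493 ± 248 (SD, n = 5 each), a log2 fold change of -0.71 (SE 0.18, limma adjusted p = 0.014). EEF1A2, the elongation factor of muscle and neurons, was called higher on few reads, with 0.616 ± 0.844 in WT and 6.03 ± 3.97 in KO embryos (SD, n = 5 each; log2 fold change 2.08, SE 0.57, limma adjusted p = 0.021). EEF1A1, which delivers tRNA to the ribosome, had 7597, 8876, 3945, 6960 and 6517 in nc1 to nc5 and 4243, 4417, 3273, 5846 and 2886 in ko1 to ko5. Its groups overlapped through nc3, and its log2 fold change of -0.71 (SE 0.24) just missed the threshold (limma adjusted p = 0.0501), with an adjusted p of 0.027 without nc2 and ko4 and of 0.71 with the RN18S1 share as a covariate. It passed in 2 of the 10 fits that leave out 1 embryo, with an adjusted p of up to 0.15. Leaving out each embryo in turn, HNRNPA1 passed in 10 of 10 fits and EEF1A2 in 6, its adjusted p reaching 0.057 (not without ko1, ko3, nc2 or nc5). With the RN18S1 share as a covariate 0 of the 17 passed (HNRNPA1 adjusted p = 0.30). EEF2 (0.24, SE 0.15) and TPT1 (0.04, SE 0.20) did not pass.

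Of 60 genes of rRNA processing and ribosome assembly, 0 rose and 6 fell at the adjusted p, 10% of the list beside 3.2% of all genes and 8.16% of well expressed genes, and the median of the list was -0.31 beside -0.11 for well expressed genes. UTP18, of the small-subunit processome, had 151, 205, 144, 168 and 176 in nc1 to nc5 and 95.8, 85.8, 69.8, 108 and 78.4 in ko1 to ko5. Every KO embryo lay below every WT embryo (log2 fold change -0.95, SE 0.18, limma adjusted p = 0.0025). IMP4, which pairs the U3 snoRNA with the precursor rRNA, fell from 355 ± 66.1 to 196 ± 33.3 (SD, n = 5 each; log2 fold change -0.85, SE 0.17, limma adjusted p = 0.0037). NPM1, the abundant nucleolar chaperone, fell by 0.64 on the log2 scale (SE 0.20, limma adjusted p = 0.045), and MPHOSPH10, RSL1D1 and UTP6 were the others. UTP18 and IMP4 passed with any 1 embryo left out. The other 4 did not pass without nc1, nc2, nc4, nc5, ko1, ko3 or ko5, each of which left 2 genes, while 12 fell without ko4 and 11 without nc3. None of the 60 passed with the RN18S1 share as a covariate (UTP18 adjusted p = 0.11), 5 passed without both nc2 and ko4, and 2 with values rescaled to the autosomal members.

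Of 15 RNA polymerase I genes in the table, 1 passed (6.67%, beside 8.16% of well expressed genes passing downward and 3.2% of all), ZNRD1, a subunit of the enzyme, which fell from 114 ± 32.6 to 60.8 ± 16.4 (SD, n = 5 each; log2 fold change -0.90, SE 0.23, limma adjusted p = 0.016) and passed with any 1 embryo left out. It did not pass with the RN18S1 share as a covariate (adjusted p = 0.30), and 0 of the 15 passed with that covariate or with values rescaled to the autosomal members. Of 17 genes of MYC and mTOR control of translation, MYC was called higher and MYCN lower, 5.88% each way beside 8.93% of all genes called higher and 1.16% lower. MYC, an activator of ribosome genes, had 3.05, 5.93, 4.97, 29.5 and 14.2 in nc1 to nc5 and 51.2, 44.9, 15.1, 28.8 and 34.6 in ko1 to ko5, so that only nc4 reached the KO range (log2 fold change 1.81, SE 0.49, limma adjusted p = 0.021). MYCN, its paralog, had 73.5 ± 30.8 and 31.7 ± 12.2 (SD, n = 5 each; log2 fold change -1.16, SE 0.32, limma adjusted p = 0.021). MYC was not called without ko1, ko5 or nc1 (adjusted p up to 0.066), nor MYCN without ko1, nc2 or nc4 (up to 0.068), and neither with the RN18S1 share as a covariate. Of the 78 mitochondrial ribosomal protein genes, which serve the separate ribosome of mitochondria, 0 rose and 3 fell (MRPL49, MRPS7 and MRPL3, by 0.80, 0.66 and 0.60 on the log2 scale), 3.85% beside 3.2% of all genes and 8.16% of well expressed genes, with a median of -0.26 beside -0.11 for well expressed genes. The number that fell was 0 without ko5, 20 without ko4, 9 without nc3, 10 without both nc2 and ko4, and 0 with the RN18S1 share as a covariate.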

How the data were processed

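Single early blastocysts were collected after zygote injection (5 WT, 5 *SOX2* KO) and sequenced by Smart-seq2 with paired reads of 150 bp. Per the labels and the study's methods, the authors used Trimmomatic for trimming, Hisat2 for alignment to the ARS-UCD1.2 genome, featureCounts for counting and DESeq2 for normalization. The authors deposited 1 table of normalized signal, that is read counts divided by a size factor, for 20112 genes and 10 embryos. Whole reads were recovered for 201120 of 201120 values (100%, within 0.1 read), and libraries held 2223670 to 5134855 reads. In nc3 the step is so near 1 read that its values could not be checked in this way on their own.

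Groups come from the labels. The KO columns are not tied to single labelled replicates, and 5 embryos per group are treated as separate samples although nothing used here ties them to separate injection days, so p-values measure only the spread between these embryos. Because the deposited values are not raw counts, log2(normalized read count + 1) of the 20056 genes averaging 1 or more was fitted with limma 3.58.1 in R 4.3.3 (lmFit, eBayes with trend, no covariate) and adjusted by the Benjamini-Hochberg method over all of them. The size of each log2 fold change is on this scale and understates changes of low genes. DESeq2 1.42.0 and edgeR 4.0.16 on the recovered reads were alternatives, as were other scalings, filters, pseudocounts, sample weights, covariates and leaving out each embryo. Leaving out nc2 and ko4 together and scaling to the autosomal members were added after seeing the data. Summaries used Python 3.11.15, numpy 2.4.6, pandas 2.3.3, scipy 1.17.1 and matplotlib 3.10.9. The fitting code was run on simulated counts with large planted changes and genes drawn independently. That run does not bear on small differences in genes that vary together.

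The members and gene lists were chosen with earlier results of these data known. Genes were named if called, if among the 5 largest rises or falls that passed with a mean of at least 50, if on a fixed list of members (the stalk, RPSA, RPS6, RPL3, RPL5, RPL11, RPS27, RPS27A, RPL22, the X-linked members and 4 paralogs), if among the 3 highest or lowest means, if outside the symbol rule, or if among the 3 largest passing rises or falls of another list. RPS26, RPL14, RPL12, RPL37, RPS9, RPS21, RPL7, RPL8, RPL13A, RPL21, RPL26, RPL30, RPS20, EEF1A1, EEF2 and TPT1 were named after their values were seen. Chromosomes are those of RefSeq ARS-UCD2.0, which named 18083 genes of the table and 78 of 78 members, and no coordinates were used. Ribosomal protein genes have many near-identical pseudogenes and paralogs (RPS27 and RPS27L, RPL36A and RPL36AL), and how the authors' counting split shared reads is not given in the sources used here. No sequence is shown.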

Additional observations from a re-analysis of the deposited data

Results flagged for a closer look

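In 166 groups of 5 embryos (each of the members and each summary per embryo, in WT and in *SOX2* KO), the highest or lowest embryo stood apart from the other 4 by Dixon's criterion in 5, where chance would give about 8.3.

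The ratio of X-linked to autosomal ribosomal protein genes was 1.15 in nc2, beside 2.1 to 2.16 in the other WT embryos, and 1.09 in ko4, beside 2.03 to 2.20 in the other KO embryos. These are the embryos with the least XIST. RPS26 had a normalized read count of 1812 in ko1, beside 2822 to 3352 in the other KO embryos, and RPL26, a large-subunit protein, had 896 in ko1, beside 1141 to 1242. RPL3 had 4569 in ko4, beside 3016 to 3398.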

How the results depend on the processing

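Each count of members and each fold change was computed under 25 alternatives. The number of members called lower, and the number lower at the adjusted p alone, were 0 in all 25. The number called higher was 0 in 24, and so was the number higher at the adjusted p alone. With sample quality weights each was 1, RPL3L, which rests on few reads (adjusted p = 0.049). The median log2 fold change of the members ranged from -0.15 (equal totals) to 0.16 (RN18S1 share as a covariate), and from -0.13 to 0.08 when an embryo was left out. RPS26, RPL14, RPLP0 and RPS4X stayed below 0 and did not pass in any alternative, and RPL12 did not pass and changed sign in 1, to 0.063 with the RN18S1 covariate. The median of all genes moved from 0.25 to between -0.04 (filter at a mean of 10) and 0.34 (scaling by the median ratio of well expressed genes). Genes of the other lists called higher numbered 2, but 0 with the RN18S1 covariate, 1 with the filter at a mean of 10, with a pseudocount of 5 or with quantile normalization, and 0 to 2 with an embryo left out. Those called lower numbered 1, but 0 with the RN18S1 covariate, 2 with edgeR or sample quality weights, 3 with equal totals, and 0 to 3 with an embryo left out. The group means of the member share moved to 9.06% (WT) and 8.76% (KO) without RN18S1 in the denominator, and ranged from 5.83 to 6.69% and from 5.16 to 5.65% with an embryo left out. The cause of these changes was not tested. No paired analysis was possible because the KO columns do not carry the replicate numbers of the labels. Depth limits RPL3L and EEF1A2.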
